A study of Mus musculus with 10 samples.

Results

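Skeletal muscle genes formed the subject here: 34 genes of the fast and slow muscle fibre, from the contractile filaments to calcium release and energy supply, measured in whole lung. They were chosen from an earlier look at these same arrays, in which 3 arrays carried them at high level (wild-type array 2, p53-null array 4 and p53-null array 5), so the height of those arrays is a description and not a finding. A member was any non-control probe that carried 1 of the 34 gene symbols. All 34 genes had a probe, 62 probes of the 41174 on the array and 34 genes of 27670.

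Whole lung was taken from 8-week-old male mice after 30 min of aerosolised saline, and its total RNA was measured on 1-colour Agilent arrays, 1 array per mouse. Wild-type C57BL/6J mice (5 arrays) were compared with mice lacking p53, the tumour suppressor encoded by Trp53 (5 arrays, same strain background per the labels). The labels name neither the p53 allele nor its promoter, and both groups received the same saline. Every level below is a log2 signal minus its own array's 75th percentile, so 0 marks the brightness of the 75th percentile and 1 unit is a doubling of signal. Levels of different genes were not compared, but probes were ranked by level to choose 1 per gene, and levels were summed over some lists.

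Skeletal muscle fibres shorten when myosin heads of the thick filament pull on actin of the thin filament. Calcium released from the sarcoplasmic reticulum through the ryanodine receptor binds troponin C, and the troponin and tropomyosin complex then frees the actin. Fast and slow fibres use different isoforms of myosin, troponin and calcium pump. Lung itself holds smooth muscle in airways and vessels, and in mice heart-type striated muscle sheathes the pulmonary veins, while skeletal muscle is not a part of lung. The diaphragm, the chest wall and the upper airway carry skeletal muscle near it.

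As a check of the genotype labels, 1 Trp53 probe ran from -3.15 to -2.66 on the p53-null arrays and from -2.22 to -1.43 in wild type, and a second overlapped between the groups, at 0.13 to 0.65 and -0.34 to 1.24; a probe outside a deleted part checks nothing. The labelled tissue was checked against lung markers. All 14 lung epithelial and all 10 lung endothelial genes listed were well above background, by the scanner software's own call, on every array. Their medians differed by at most 0.36 log2 units between any array and the median of the 7 remaining arrays. Those 7 are called the other 7 arrays from here on, and values given for the 3 high arrays stand in the order wild-type array 2, p53-null array 4, p53-null array 5. The 3 arrays were each hybridised on a slide that also held one of the other 7: wild-type array 2 with wild-type array 5, p53-null array 4 with p53-null array 1, and p53-null array 5 with p53-null array 3. The share of spots well above background ran from 71.4% to 84.0%, no member spot was saturated, and precision is limited by how many arrays there were.

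Probe letters matter here because related muscle genes share sequence and because some members had probes that behaved differently. The following 60-base probes, copied from the scanner files and placed by them on mm7, are shown for the 4 members where probe choice or array identity bears most on the reading, namely Myh8, Myh4, Myh2 and Atp2a1. Each keeps at least 1 reading frame without a stop codon. Capitals in the first mark a run of 19 bases that the brighter Myh1 probe also holds.
Myh8 A_51_P143296 (chr11:67389989-67390048, plus strand): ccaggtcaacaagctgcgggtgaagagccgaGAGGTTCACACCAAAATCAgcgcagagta
Myh8 A_52_P224283 (chr11:67366452-67366511, plus strand): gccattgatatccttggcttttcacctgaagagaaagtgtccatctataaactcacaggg
Myh4 A_52_P602147 (chr11:67340868-67340927, plus strand): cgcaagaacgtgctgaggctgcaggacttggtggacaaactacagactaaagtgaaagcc
Myh2 A_51_P395652 (chr11:67274375-67274539, plus strand, across an intron): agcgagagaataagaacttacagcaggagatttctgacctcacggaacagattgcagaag
Atp2a1 A_51_P244856 (chr7:122544747-122544806, minus strand): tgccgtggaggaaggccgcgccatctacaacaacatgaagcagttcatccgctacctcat
Atp2a1 A_52_P686130 (chr7:122543142-122543485, minus strand, across an intron): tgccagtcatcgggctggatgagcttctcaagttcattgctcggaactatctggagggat

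Promoters of the members are shown as well, as a description of sequence only. RefSeq (GRCm38.p6) gave the 250 bases before the start for 25 of the 34 members, in 29 promoters. The muscle E-box CAGCTG, a palindrome that myogenic factors of the MyoD family can bind, stood in 51.7% of the 29 and in 13.0% of all 32851 promoters of that length. Matches to the MEF2 consensus, searched on both strands, stood in 20.7% against 1.69%, and a CArG box, the motif of serum response factor, in 6.9% against 1.47%. TATAAA, searched on both strands and able to overlap a MEF2 match, stood in 20.7% against 12.4%. CATTCC, the motif of TEAD factors, was found on either strand in 24.1% against 12.6%. A match is a description of letters, not a bound site. The promoters of the thin filament actin Acta1 and of the myosins Myh4 and Myh2 are printed. Acta1 held each of these motifs except the MEF2 consensus, Myh4 held them all and Myh2 held none. Tnnc2, Ryr1, Actn2 and Smpx also held none. By the probes used, Tnnc2 and Ryr1 had all 3 high arrays above the other 7, and Actn2 and Smpx did not. Whether motifs bear on array profiles was not tested. Capitals mark the matches.
Acta1 (chr8:123894776-123895025, minus strand): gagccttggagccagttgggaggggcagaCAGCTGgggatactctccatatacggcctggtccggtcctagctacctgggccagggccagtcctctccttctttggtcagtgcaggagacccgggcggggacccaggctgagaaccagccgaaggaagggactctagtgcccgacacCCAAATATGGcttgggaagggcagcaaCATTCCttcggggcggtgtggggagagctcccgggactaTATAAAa
Myh4 (chr11:67237562-67237811, plus strand): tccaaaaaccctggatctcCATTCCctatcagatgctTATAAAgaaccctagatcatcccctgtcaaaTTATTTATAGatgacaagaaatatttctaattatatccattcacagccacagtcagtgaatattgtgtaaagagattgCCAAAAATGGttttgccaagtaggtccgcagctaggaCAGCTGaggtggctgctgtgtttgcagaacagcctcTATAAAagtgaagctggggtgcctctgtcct
Myh2 (chr11:67170777-67171026, plus strand): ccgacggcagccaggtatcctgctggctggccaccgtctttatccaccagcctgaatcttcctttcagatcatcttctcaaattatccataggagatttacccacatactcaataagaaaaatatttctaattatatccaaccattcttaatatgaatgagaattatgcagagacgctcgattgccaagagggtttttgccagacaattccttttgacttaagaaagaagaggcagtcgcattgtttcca

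Across all members, the 3 arrays stood above the rest by very unequal amounts. The excess of an array is its level minus the median of the other 7 arrays for the same gene. For Mybpc1 and Pvalb, well above background on 0 and 1 of those 7, it is taken against a background reading. In wild-type array 2 the median excess over the 34 members was 3.18 log2 units, with a range from 0.48 to 10.4. The median was 1.91 in p53-null array 4 (0.037 to 9.01) and 1.99 in p53-null array 5 (-0.29 to 9.08). Excess above 4 was reached by 13, 9 and 12 members on those arrays. For 23 of the 34 members all 3 arrays lay above all of the other 7, as did 21 of the 32 tested members, beside 0.597% of all tested genes, and these arrays were picked for that. Wild-type array 2 was the highest of the 10 for 30 members, p53-null array 4 for 3 (Myh2, Tnnt1 and Pvalb) and wild-type array 5 for Tnni1.

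**Figure D1:**
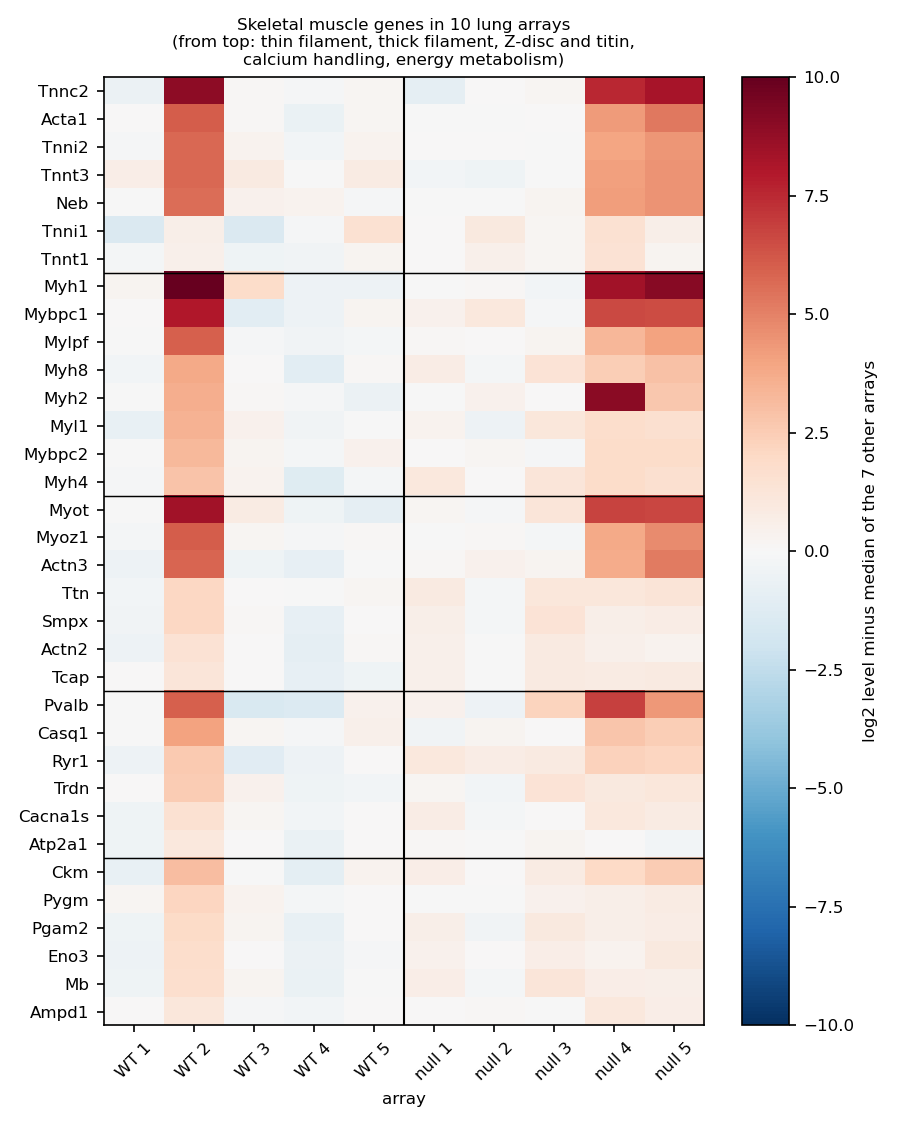
Heat map of the 34 muscle genes (rows, grouped by role) over the 10 arrays (columns); colour gives the log2 level minus the median of the other 7 arrays. Wild-type array 2 is raised most in nearly every row, with median excess 3.18, and p53-null arrays 4 and 5 follow at 1.91 and 1.99.

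Thin filament genes had the largest median excess of the 5 roles, 5.73 in wild-type array 2, 4.13 in p53-null array 4 and 4.49 in p53-null array 5. Acta1, the actin of skeletal thin filaments, read -1.0, 5.03, -0.91, -1.65 and -0.82 on wild-type arrays 1 to 5. On p53-null arrays 1 to 5 it read -1.06, -1.08, -0.94, 3.22 and 4.29. The 3 high arrays lay at least 4 log2 units above every other, and the remaining 7 spanned less than 1 unit. Tnnc2, the calcium-binding troponin C of fast fibres, read -4.0, 5.56, -3.28, -3.55 and -3.21 in wild type and -4.34, -3.40, -3.23, 4.17 and 4.85 in p53-null mice. Tnni2, the inhibitory troponin of fast fibres, gave -0.32, 5.56, 0.19, -0.43 and 0.17 against -0.18, -0.13, -0.21, 3.79 and 4.25. Both showed the same 3 arrays high and no overlap with the rest. The fast troponin T gene Tnnt3 read -1.86, 3.20, -1.62, -2.54 and -1.69, then -2.83, -2.94, -2.57, 1.60 and 1.95. Neb, which encodes nebulin, the ruler protein along the thin filament, read between -5.60 and -5.09 on the other 7 arrays and 0.11, -1.28 and -0.99 on the 3.

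The slow-fibre troponins departed from this. Tnnt1, the slow troponin T gene, read -1.21, -0.55, -1.47, -1.40 and -0.79 in wild type and -1.02, -0.55, -0.86, 0.42 and -0.77 in p53-null mice. P53-null array 4 alone stood clear of the rest, while wild-type array 2 and p53-null array 2 were level at -0.55. Tnni1, the slow troponin I gene, was dim, with -6.93, -4.92, -6.93, -5.58 and -3.96 against -5.48, -4.54, -5.26, -3.99 and -4.89. Its second probe, A_52_P657360, put p53-null array 4 highest at -3.50 and wild-type array 2 next at -4.54, and gave wild-type array 5 as -5.56, so the high reading of wild-type array 5 came from 1 of its 2 probes. Over these 2 genes the median excess was 0.52, 1.47 and 0.42 on the 3 high arrays, beside 5.74, 3.86 and 4.18 over the 12 fast-fibre members.

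Among thick filament genes, Myh1 and Myh2 had the largest spans over the 10 arrays. Myh1, the myosin of fast IIx fibres, read -5.62, 4.48, -4.04, -6.38 and -6.39 in wild type and -5.88, -5.77, -6.15, 2.52 and 3.20 in p53-null mice. By that probe, A_51_P192042, its span of 10.9 log2 units exceeded that of 99.96% of tested genes. The other Myh1 probes differed. A_52_P257638 was well above background only on the 3 high arrays and read -4.66, -3.54 and -2.84, with wild-type array 2 lowest. A_51_P364788 read -2.65, -4.00 and -3.47 on them and overlapped the other 7 arrays. Myh2, the myosin of the more oxidative IIa fibres, read -5.28, -1.66, -5.18, -5.43 and -5.84, then -5.30, -4.86, -5.27, 3.73 and -2.61. Here p53-null array 4 stood far above the other high arrays, whereas Myh1 A_51_P192042 put it lowest of the 3. All 3 Myh2 probes put p53-null array 4 highest, at 3.73, 0.97 and 4.10. They gave -1.66, -1.74 and -1.62 on wild-type array 2 and -2.61, -2.90 and -2.43 on p53-null array 5. The A_51_P395652 probe printed above, the second of these, was well above background on only 1 of the other 7 arrays.

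Myh4, the myosin of the fastest IIb fibres, had probes that behaved differently. A_52_P602147 was bright on every array, with 0.65, 3.61, 1.12, -0.50 and 0.57 in wild type and 1.80, 0.73, 1.92, 2.55 and 2.32 in p53-null mice. A_51_P338072 read 4.29, 2.74 and 1.20 on the 3 high arrays and was well above background on only 1 of the other 7, so the size of its excess has no measured base. Myh8, the perinatal myosin, showed a split of the same kind. A_51_P143296, which shares the capitals above with Myh1, read 1.81, 5.88, 2.11, 1.05 and 2.20, then 2.85, 1.95, 3.49, 4.58 and 5.05. A_52_P224283 and A_52_P363051 were well above background only on wild-type array 2 (-4.01 and -3.41) and p53-null array 5 (-5.28 and -4.72), and a further probe on no array. P53-null array 4 read -9.16 and -9.29 on these probes, not well above background. The 2 kinds of Myh8 probe therefore placed p53-null array 4 differently, and which transcript the bright probe measured was not tested.

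The remaining thick filament genes, like Myh1 A_51_P192042, were highest on wild-type array 2. Mylpf, the phosphorylatable light chain of fast myosin, read between -3.23 and -2.60 on the other 7 arrays and 3.13, 0.50 and 1.20 on the 3 high arrays. Myl1, the fast essential light chain, ran from 0.01 to 1.87 on the 7 and reached 4.19, 2.49 and 2.33. Mybpc2, the fast myosin-binding protein C, ran from -0.93 to -0.28 and reached 2.51, 1.13 and 1.13. Its relative Mybpc1 was not well above background on any of the other 7 arrays and read -0.92, -2.31 and -2.39 on the 3, at least 43.6-fold higher. That bound sets the mean of the 3 arrays against the mean, over the 7, of the higher of the probe's own signal and the dimmest signal called well above background.

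**Figure D2:**
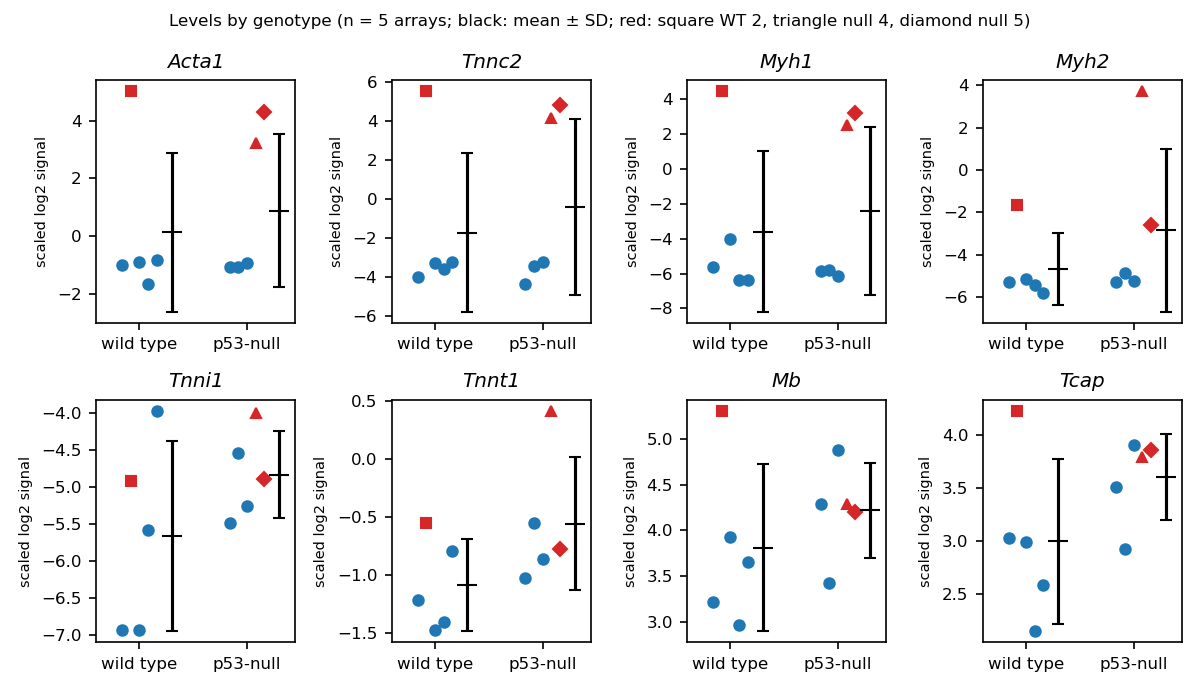
Scaled log2 signal of 8 members in wild-type and p53-null lung, 1 point per array, with mean ± SD (n = 5) in black and wild-type array 2, p53-null array 4 and p53-null array 5 in red. Acta1, Tnnc2 and Myh1 separate the red arrays from the rest, Myh2 is highest at 3.73 in p53-null array 4, and Tnni1, Tnnt1, Mb and Tcap do not separate the red arrays.

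Z-disc genes differed in how far the 3 high arrays stood apart, and all but Myot were well above background on all 10 arrays. Actn3, the fast-fibre alpha-actinin, read -5.36 to -4.12 on the other 7 arrays and 1.24, -0.83 and 0.61 on the 3 high arrays. Myoz1, which tethers calcineurin to the Z-disc of fast fibres, read -5.19 to -4.83 and 1.03, -1.25 and -0.32. Myot, encoding myotilin, was well above background on 1 further wild-type array and 2 further p53-null arrays, with -8.24 to -6.13 on the 7 and 1.05, -0.58 and -0.66 on the 3. Actn2, the alpha-actinin that heart shares, read -0.38, 1.60, 0.16, -0.74 and 0.29, then 0.67, 0.10, 1.07, 0.65 and 0.53, so p53-null array 3 lay above p53-null arrays 4 and 5. Tcap, which caps titin at the Z-disc, read 3.03, 4.23, 2.99, 2.15 and 2.59, then 3.51, 2.93, 3.91, 3.79 and 3.86, so p53-null array 3 was level with p53-null arrays 4 and 5. Smpx and the giant spring protein gene Ttn behaved likewise, with 1.96 and -0.04 on p53-null array 3 beside 1.20 and -0.04 on p53-null array 4.

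Calcium handling genes had a median excess of 2.58, 1.68 and 1.63. Ryr1, the calcium release channel of skeletal muscle, read -3.15, -0.06, -3.76, -3.13 and -2.66 in wild type and -1.58, -1.90, -1.77, -0.33 and -0.52 in p53-null mice. Its 3 high arrays were above the rest, and the 3 remaining p53-null arrays also lay above the 4 remaining wild-type arrays. A second Ryr1 probe gave the same order on both counts, and the last, A_51_P256401, was highest at -0.84 on wild-type array 5 and gave the 3 arrays -2.94, -2.73 and -3.0. Casq1, the calcium store protein of the fast-fibre reticulum, read -5.78 to -4.91 on the 7 and -1.40, -2.64 and -2.93 on the 3. Pvalb, the calcium buffer parvalbumin of fast fibres, was well above background on 1 wild-type and 3 p53-null arrays, with -3.06 on wild-type array 2, -6.77, -2.23 and -4.71 on p53-null arrays 3, 4 and 5 and at most -8.58 elsewhere. Atp2a1, the fast-fibre calcium pump, read -0.23, 1.30, 0.21, -0.48 and 0.25, then 0.34, 0.14, 0.46, 0.24 and -0.08 on the first of the probes printed above. The second read 1.15, -0.34 and -0.34 on the 3 arrays and -5.25 to -3.19 on the 7. Excess on wild-type array 2 was thus 1.09 by one probe and 5.79 by the other. Cacna1s, the voltage sensor that opens Ryr1, and Trdn, its anchor triadin, read 1.37 and 1.14 on wild-type array 2, and Trdn read -0.04 on p53-null array 3, above its -0.43 on p53-null array 4.

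Energy genes showed the smallest excess of the 5 roles, 1.81, 0.63 and 0.75. Ckm, the muscle creatine kinase, read -1.58, 2.24, -0.92, -1.82 and -0.53 in wild type and -0.20, -0.87, -0.03, 1.09 and 1.67 in p53-null mice, with the 3 arrays above the others. Mb, the oxygen store myoglobin shared by heart and oxidative fibres, read 3.21, 5.31, 3.92, 2.96 and 3.65, then 4.29, 3.42, 4.88, 4.29 and 4.20. P53-null array 3 exceeded both p53-null array 4 and array 5, and the groups overlapped. The glycolytic genes Eno3 and Pgam2 read 2.82 and 1.50 on p53-null array 3, beside 2.55 and 1.15 on p53-null array 4. Ampd1, the muscle AMP deaminase, and Pygm, the glycogen phosphorylase, read -1.97 and 0.92 on wild-type array 2 and -3.07 and -1.26 as medians of the other 7.

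**Figure D3:**
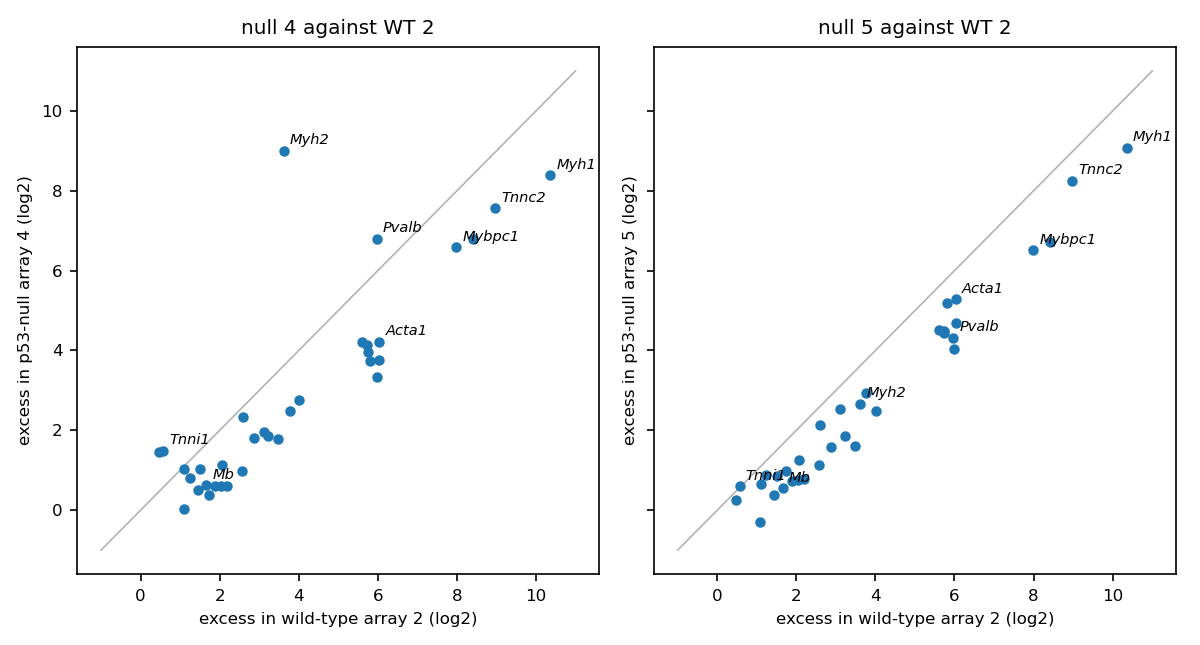
Excess of each of the 34 members over the median of the other 7 arrays, in wild-type array 2 (x axis, log2) against p53-null array 4 (left) or p53-null array 5 (right), with the line of equal excess in grey. Most points lie below the line; Myh2 lies far above it for p53-null array 4 (9.01 against 3.62) and below it for p53-null array 5.

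Members also varied over the other 7 arrays. Of the 34 members, 17 were highest of those 7 arrays in p53-null array 3, and 18 were lowest in wild-type array 4. The 17 held both genes that heart shares (such as Mb, Tcap, Ttn and Actn2) and fast skeletal genes (such as Mylpf, Myl1 and Pvalb). Myh4 was among them only by its bright probe A_52_P602147. Its probe A_51_P338072 read -9.17 on p53-null array 3 and was highest of the 7 on wild-type array 3, at -5.36. Over the 12 heart genes with a probe the median excess was 0.98 in p53-null array 3, 0.45 in p53-null array 1, -0.70 in wild-type array 4 and 0.94 in wild-type array 2, but 0.12 and -0.059 in p53-null arrays 4 and 5. Nppa, the atrial natriuretic peptide gene, read 2.73, 6.47, 3.75, 2.50 and 3.21 in wild type and 4.22, 2.79, 6.17, 3.53 and 3.0 in p53-null mice. Summed on a linear scale, where the 75th percentile counts as 1, the 12 heart genes reached 287 in wild-type array 2, 131 and 114 in p53-null arrays 4 and 5 and 71.4 to 265 on the other 7. All but 1 of the 12 were well above background on all 10 arrays, and the part of heart-type muscle in the members' levels was not tested.

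Markers of squamous epithelium moved with the muscle genes on part of the 3 arrays. Of 23 such genes with a probe, 19 had an excess over 1 in wild-type array 2 and 18 in p53-null array 5, and 0 in p53-null array 4. Their median excess was 4.86, 3.60 and -0.09 on wild-type array 2, p53-null array 5 and p53-null array 4. Lor, a cornified envelope gene, read 6.58 and 5.99 on wild-type array 2 and p53-null array 5 and -3.22 to -1.21 elsewhere. Krt4, a keratin of stratified squamous epithelium, read 4.0 and 2.74 there and -8.27 to -5.83 elsewhere. Their summed level was 194 and 107 on those arrays, 11.2 on p53-null array 4 and 11.1 to 14.6 on the other 7, and Dsc3 was well above background on none. The muscle excess of p53-null array 4 was thus present with squamous genes at the level of the other 7 arrays. For wild-type array 2 and p53-null array 5 their part in the result was not tested.

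Genes that set the high arrays apart were counted among the 22277 well above background on at least 3 arrays. The members were chosen with the height of the 3 arrays known, so their number in these counts describes that choice. At least 2 log2 units separated the lowest of the 3 arrays from the highest of the rest for 16 genes, of which 13 were members (Acta1, Actn3, Mybpc1, Myh1, Myh2, Mylpf, Myot, Myoz1, Neb, Pvalb, Tnnc2, Tnni2 and Tnnt3), and 1 was Jsrp1, a partner of the calcium release channel. Wild-type array 2 and p53-null array 5 together stood apart in 74 genes, 12 of them squamous and 0 members. The pairs formed with p53-null array 4 stood apart in 0 genes. P53-null array 4 alone stood apart in 7 genes, 1 of them Myh2. Genes well above background on fewer than 3 arrays were left out of these counts. A gene detected only on a pair or only on 1 array could therefore not enter. The counts for pairs and single arrays are thus not comparable with that for all 3.

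Genes of the muscle programme outside the 34 varied in how far they followed. Of 60 other striated muscle genes with a probe, all tested, 38 had an excess over 1 in wild-type array 2, 12 in p53-null array 4 and 11 in p53-null array 5. Among 7 genes that slow fibres and heart share, Myl2, the slow regulatory light chain, read -1.08 on p53-null array 4, -4.11 and -4.60 on wild-type array 2 and p53-null array 5 and -7.09 to -5.77 on the other 7. Myh7, the slow myosin, read 3.64 on p53-null array 4 and 2.75 to 3.13 elsewhere. Myl3, Atp2a2, Casq2 and Tpm3 of that list did not share this order. Myl3, the slow essential light chain, read 3.99, 1.27 and 2.73 on the 3 high arrays. Atp2a2 was highest on wild-type array 2 (4.33), Casq2 on p53-null array 3 (0.53) and Tpm3 on wild-type array 3 (4.91). Only 1 of the 7 had an excess over 1 on p53-null array 4. Of 18 myogenic regulators and synapse genes, 3 were well above background on no array (Myf5, Pax3 and Musk), and 3, 0 and 4 had an excess over 1 on the 3 high arrays. Their median excess was 0.38, 0.24 and 0.51 there and 0.60 in wild-type array 5. The 3 with the largest span were Myf6, Myog and Chrna1. Myf6 (-2.42 and -3.35), Myog (-3.20 and -4.30) and Chrna1 (-2.08 and -3.46) were highest on wild-type array 2 and p53-null array 5, where p53-null array 4 read -5.16, -5.79 and -5.45. Median excess of 11 smooth muscle genes was 0.050, 0.18 and -0.0059 on the 3 arrays.

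**Figure D4:**
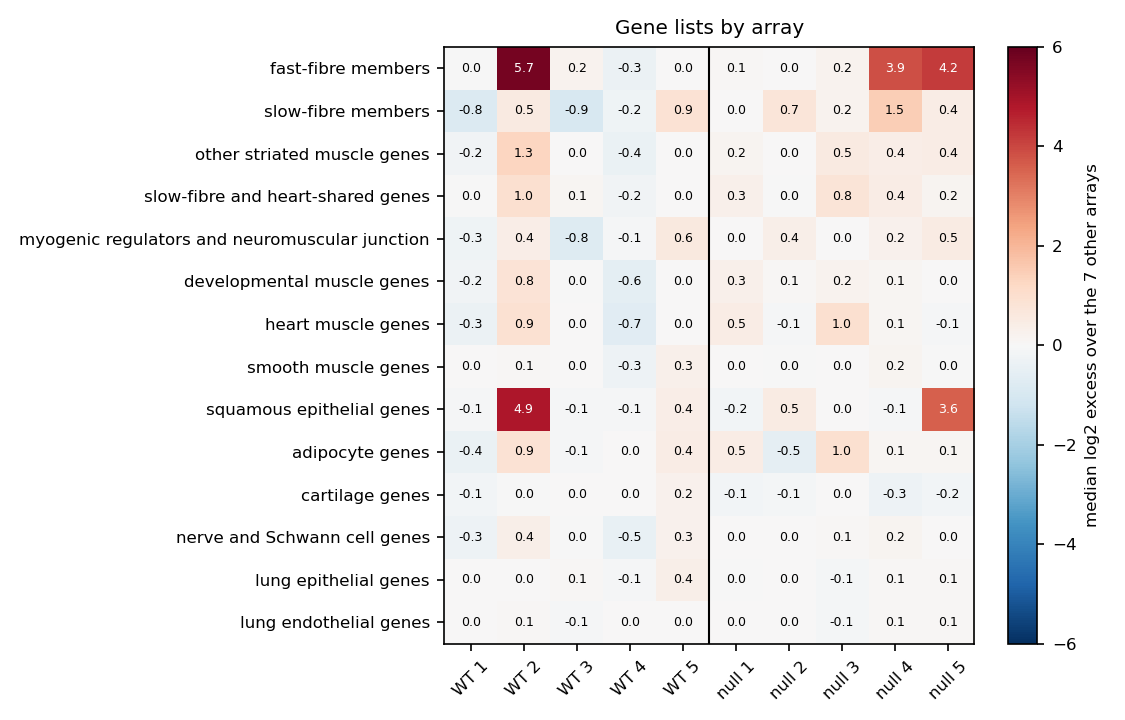
Median log2 excess over the other 7 arrays for 14 gene lists (rows) on each of the 10 arrays (columns), with the value in each cell to 1 decimal. Fast-fibre members are high in all 3 arrays, squamous genes in wild-type array 2 and p53-null array 5, heart genes in wild-type array 2 and p53-null array 3, and lung genes stay within 0.36 of the median.

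Likeness to the members was measured as Pearson's r over the 10 arrays between a gene and the median deviation of the 34 members, among 22277 genes well above background on at least 3 arrays. With r of at least 0.9 and a span of at least 2 log2 units there were 46 genes, 19 of them members. The closest others were Thbs4 (r = 0.979), Rpl3l (0.976), Pla2g4e (0.974), Klhl41 (0.970), Smtnl1 (0.969) and Lmod3 (0.968). Lrtm1, Asb5, Nrap, Asb12, Jsrp1, Klhl31, Angptl1, Myl3 and Xirp2 followed down to 0.944. Smtnl1, for example, read 0.06, -1.84 and -1.49 on the 3 arrays and -6.48 to -5.52 on the rest. These r values describe 10 shared arrays, 3 of which carry the relation.

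The genotype comparison asked whether p53-null lung differed from wild type in these genes. Of 34 members, 32 were well above background on at least 5 arrays and were tested, and Pvalb and Mybpc1 were not. Limma with Benjamini-Hochberg adjustment at 0.05 called 0 of the 32, and 0 had an unadjusted p under 0.05, beside 7.49% of the 21116 tested genes called (4.59% higher and 2.89% lower in p53-null lung). For 0 of the 32 did the 5 p53-null arrays all lie on one side of the 5 wild-type arrays, beside 9.09% of tested genes. The fitted difference, p53-null minus wild type, was positive for 30 of the 32 and for 56.3% of all tested genes. Its median was 0.46 over the members and 0.050 over all tested genes. The members share the same 10 arrays and so are not separate evidence of a direction, and 2 of the 3 high arrays were p53-null. In bulk RNA, more muscle cells and more RNA per cell cannot be told apart.

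Errors of these differences were wide, and the high arrays lay in both groups. The median SE was 0.69 over the members and 0.146 over all tested genes. Acta1 had means of 0.13 ± 2.76 (SD, n = 5) in wild type and 0.89 ± 2.65 in p53-null mice, a difference of 0.76 ± 1.54 (SE, limma adjusted p = 0.795). Myh2 gave the largest difference, 1.82 ± 1.70 (limma adjusted p = 0.527), from -4.68 ± 1.71 (SD) in wild type and -2.86 ± 3.85 in p53-null mice. Tnnc2 differed by 1.31 ± 2.45 and Myh1 by 1.17 ± 2.69. Ryr1 had the lowest adjusted p of the 32, 0.219, with a difference of 1.33 ± 0.66 in limma. Without wild-type array 2 that gene alone was called, at 1.96 ± 0.38 (limma adjusted p = 0.0454). The negative differences were Pygm at -0.15 ± 0.42 and Tnnt3 at -0.055 ± 1.38.

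**Figure D5:**
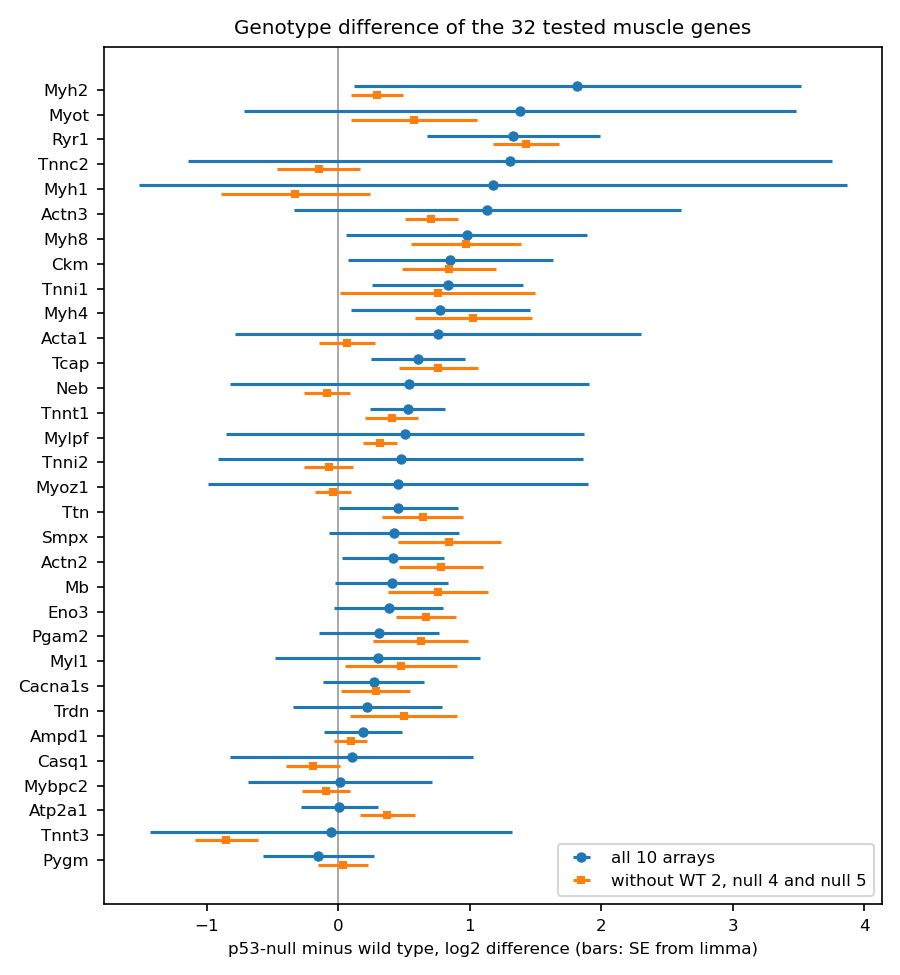
Log2 difference, p53-null minus wild type, with the SE from limma for the 32 tested members, with all 10 arrays (circles) and without the 3 high arrays (squares). With all arrays the bars are wide (median SE 0.69) and 30 points lie above 0; without the 3 arrays the bars shrink (median SE 0.26) and 24 points lie above 0.

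Leaving out the 3 arrays left 4 wild-type and 3 p53-null arrays. The SE became smaller for 31 of the 32 members, beside 8.39% of all tested genes, and its median over the members was 0.26 against 0.184 over all genes. Limma called 0 members, beside 0.0474% of tested genes, and 7 of the 32 members had an unadjusted p under 0.05, beside 16.5% of tested genes. The median difference was 0.44 over the members, against 0.040 over all genes, and 24 of 32 were positive. Ryr1 differed by 1.43 ± 0.25 (limma adjusted p = 0.144), the wild-type arrays lying at -3.76 to -2.66 and the p53-null arrays at -1.90 to -1.58. Actn3 differed by 0.71 ± 0.20 (limma adjusted p = 0.215) and Mylpf by 0.31 ± 0.13 (limma adjusted p = 0.290). In these 3 members the p53-null arrays all lay above the wild-type arrays, beside 8.61% of tested genes. Tnnt3 was the 1 member in which they all lay below, at -0.85 ± 0.24 (limma adjusted p = 0.215), beside 7.14% of tested genes. Both Tnnt3 probes had that order. Shares of 3 and 1 in 32 are near those background shares.

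The roles did not move alike when the 3 arrays were left out. For thin filament genes the median difference went from 0.54 to -0.072, and for thick filament genes from 0.78 to 0.31. For Z-disc genes it went from 0.46 to 0.71, for calcium handling genes from 0.22 to 0.37 and for energy genes from 0.34 to 0.65. Heart genes went from 0.29 to 0.66 in the same way, and their level in p53-null array 3 is given above. Acta1 fell back to 0.067 ± 0.21 and Tnnc2 to -0.15 ± 0.32, while Mb stood at 0.76 ± 0.38 and Tcap at 0.76 ± 0.30 (limma adjusted p = 0.363 and 0.285). Among the 60 other striated muscle genes 1 was called higher with all arrays and 0 lower, beside 4.59% and 2.89% of tested genes. The 1 called was Fbxo32, a ubiquitin ligase of muscle atrophy, at 0.75 ± 0.19 (limma adjusted p = 0.0449). It was not called without the 3 arrays (0.77 ± 0.23, limma adjusted p = 0.222).

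Over all genes, the count of calls changed when the 3 arrays were left out. Limma called 970 genes higher and 611 lower with all 10 arrays and 10 genes without the 3, all 10 of them among the 1581, while 3480 genes had an unadjusted p under 0.05. That fit has 3 arrays fewer, and other sets of 3 arrays were not left out. With the members' median deviation as a covariate, 1279 of 21084 genes that are not members were called (6.07%), 1147 of them among the 1581. Genes called without the 3 arrays included Med1, a subunit of the Mediator complex, at 1.93 ± 0.092 (limma adjusted p = 0.00315), beside 2.02 ± 0.074 with all arrays.

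Position on the chromosome was examined because 7 members lie on chromosome 11, which also holds Trp53. Myh1, Myh2, Myh4, Myh8 and Eno3 lie within 10 Mb of a Trp53 probe on mm7, the myosins 2.27 to 2.38 Mb before it and Eno3 1.08 Mb after it. Tcap and Pgam2 lie farther away. Limma called 0 of these 7 between genotypes, beside 7.49% of all tested genes, a share at which 7 genes say nothing of position.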

How the data were processed

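Lung RNA of 10 mice, 5 per genotype, was labelled with a single dye (Cy3), per the labels' protocols. The submitters' processing notes name Agilent Feature Extraction 9.5 as the scanner software. The deposited intensity values are background-subtracted, per the file headers, and the deposited value table equalled them (largest difference 0).

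The 75th percentile of 43379 non-control spots was subtracted from the log2 intensities of each array. Spots flagged as outliers were dropped, repeat spots of 1 probe were averaged, and the probe with the highest mean stood for its gene. Probe names were updated through a RefSeq gene table (22951 probes by accession, 6659 by symbol, 3109 by synonym; 8455 kept the file's name), used for names only. Groups were compared with limma 3.58.1 in R 4.3.3, over genes that passed the background call on 5 or more of the 10 arrays. The design text calls the 5 arrays per group biological replicates. The members and all gene lists were chosen with earlier results of these data known. Named genes were all members, genes of each list with the highest mean or largest span that a result turns on, any called gene of a muscle list, the 15 genes most like the members and leading calls without the 3 arrays; the protein sequences foreseen by that rule are not used here. Other settings tried were background correction, scaling, dim-probe filters, the mean of probes, slide, scan day and replicate number as blocks, array weights, a stricter threshold, and leaving out the 3 high arrays or each array in turn. The code was tested on simulated data. Array numbers did not pair the samples: deviations of same-numbered arrays correlated between -0.221 and 0.0011.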

Additional observations from a re-analysis of the deposited data

Results flagged for a closer look

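In each group of 5 arrays, the highest or lowest array was marked when more than the share 0.71 of the group's range separated it from its neighbour (Dixon's critical value at 95%), which chance alone meets in about 1 in 20 groups. Of 96 groups examined, 28 had such an array. Wild-type array 2 stood above the other wild-type arrays in 22 of the 34 members, which were chosen with its high level known, so these marks describe that choice. Among filament genes these were, with the level and the next highest wild-type array, Acta1 (5.03, next -0.82), Myh1 (4.48, next -4.04), Myh2 (-1.66, next -5.18), Myh8 (5.88, next 2.20), Mylpf (3.13, next -2.85), Myl1 (4.19, next 1.15), Tnnt3 (3.20, next -1.62), Tnni2 (5.56, next 0.19), Tnnc2 (5.56, next -3.21), Mybpc1 (-0.92, next -8.61), Mybpc2 (2.51, next -0.28) and Neb (0.11, next -5.09). Among Z-disc, calcium handling and energy genes they were Pvalb (-3.06, next -8.58), Casq1 (-1.40, next -4.91), Actn3 (1.24, next -4.57), Myot (1.05, next -6.51), Ttn (0.90, next -0.97), Eno3 (3.92, next 2.23), Ampd1 (-1.97, next -3.02), Myoz1 (1.03, next -4.83), Trdn (1.14, next -0.99) and Pygm (0.92, next -0.93). The median deviation of all members from each gene's 10-array median was 2.80 on wild-type array 2 and at most -0.15 on the other wild-type arrays. For squamous genes it was 4.23 on wild-type array 2 (next 0.28) and 3.12 on p53-null array 5 (next 0.29).

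Within the p53-null group no member singled out p53-null array 4 or 5. Where both arrays were high together, neither could be marked by this rule. Myh2 (3.73, next -2.61) and Tnnt1 (0.42, next -0.55) were highest on p53-null array 4 but stayed under the cut-off. P53-null array 2 was low for Ttn at -1.33 (next -0.29) and for Pgam2 at 0.23 (next 1.14). P53-null array 3 was low for lung endothelial genes, with a median deviation of -0.21 (next -0.040).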

How the results depend on the processing

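The members' count of calls stayed at 0 under normexp background, quantile normalization, median centring, kept outlier flags, no filter, a filter on all 10 arrays, the mean of all probes, slide as a fixed or random block, scan day as a block, the value table, an adjusted p under 0.01 and without the 3 arrays. It was 1 with array weights (Tnni1 at 1.42, limma adjusted p = 0.0473) and 0 to 1 when each array was left out in turn. The members' median difference ran from 0.17 (without p53-null array 5) to 0.99 (without wild-type array 2) and from 0.39 to 0.67 under the other alternatives. Over all genes, 1581 calls became 583 with median centring, 538 with no filter, 998 with the mean of probes, 322 with scan day as a block, 6510 with array weights, 56 at 0.01, 10 without the 3 arrays, and 192 (without p53-null array 3) to 6619 (without wild-type array 5) with 1 array left out. Slide as a fixed block gave 0 calls by limma, with 1139 genes at an unadjusted p under 0.05. Only 1 slide held both groups. With the replicate block 26 genes were called, 0 of them members, and the members' median stayed at 0.46. The numbers do not pair the arrays.

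The members' median deviation on wild-type array 2, 2.80, was 2.51 with normexp and 3.23 with the mean of probes, and 2.70 to 2.90 with 1 array left out. On p53-null array 4 it ran from 1.39 to 1.59 and on p53-null array 5 from 1.41 to 1.5 in those fits, and p53-null array 5 was at 1.93 with the mean of probes. Members were not fitted with their own score as covariate.

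Some differences changed sign, from 1.31 and 1.17 for Tnnc2 and Myh1 to under 0.1 in size for others. Mybpc2 was -0.017 with normexp, -0.0098 with quantile normalization, -0.058 with median centring, -0.10 with scan day and -0.092 without the 3 arrays. Casq1 was -0.020 with quantile normalization, -0.072 with scan day and -0.19 without the 3 arrays, and Atp2a1 -0.063 with median centring and -0.15 with the mean of probes. Tnnt3 was 0.014 with the mean of probes and 0.34 with array weights. With slide as a fixed block Myl1, Neb, Pygm and Ttn were -0.19, -0.42, 0.14 and -0.10. Without the 3 arrays Myh1, Myoz1, Neb, Pygm, Tnnc2 and Tnni2 were -0.33, -0.039, -0.085, 0.036, -0.15 and -0.072. For all of these the cause was not tested. With 1 array left out the ranges that crossed 0 were Acta1 -0.096 to 1.98, Atp2a1 -0.16 to 0.28, Casq1 -0.33 to 0.87, Mybpc2 -0.26 to 0.63, Myh1 -0.23 to 3.19, Myl1 -0.022 to 1.02, Mylpf -0.11 to 1.74, Myoz1 -0.30 to 1.66, Neb -0.14 to 1.63, Pygm -0.33 to 0.27, Tnnc2 -0.0055 to 3.12, Tnni2 -0.21 to 1.60 and Tnnt3 -0.78 to 0.97.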

Other observations

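Brown fat genes varied on the same lung arrays in another way. Ucp1, the uncoupling protein of brown fat, read -4.32, -1.29, -3.93, -4.94 and -2.56 on wild-type arrays 1 to 5 and 1.43, -5.52, 0.87, -3.52 and -3.33 on p53-null arrays 1 to 5. P53-null arrays 1 and 3 were its highest, whereas p53-null arrays 4 and 5, high in skeletal muscle genes, were not. Cidea, a lipid droplet protein of brown fat, read 2.51 and 2.42 on p53-null arrays 1 and 3, 1.81 on wild-type array 2 and -0.20 to 0.93 on the rest. Limma did not call either gene (adjusted p = 0.54 for Ucp1 and 0.53 for Cidea). Over 15 adipocyte genes the median excess was 0.86 on wild-type array 2, 0.45 on p53-null array 1 and 0.98 on p53-null array 3. Of these 15, 1 was called higher in p53-null lung, beside 4.59% of tested genes. It was Lep, at 2.03 ± 0.46 (limma adjusted p = 0.0328), well above background on 5 arrays. Those were wild-type array 4 and p53-null arrays 1 to 4, so Lep passed the filter mainly through the group where it was high. On wild-type arrays 1, 2, 3 and 5 it read -8.07, -7.05, -9.33 and -8.32, which are background readings. The size of its difference therefore has no measured base. Without the 3 high arrays Lep was not called (2.54 ± 0.38, limma adjusted p = 0.109).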
